A study of Mus musculus with 2 samples.

Results

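The 9 genes described here are Sag, Pdc, Gngt1, Pde6b, Guca1a, Prph2, Rom1, Rcvrn and Opn1sw, parts of the light response and of the outer segment of photoreceptors. At birth they were followed through rods, cones and their precursors, in mice with and without deletion of Myrf in the eye. They were taken by symbol from the feature list of the count matrices, where all 9 were found among 31053 genes. Each was read as raw UMIs (molecular tags, counted once for each captured transcript) in both libraries.

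In rods and cones light acts on an opsin, which activates the G protein transducin. Transducin switches on phosphodiesterase 6, cyclic GMP falls and cation channels close. Among the 9 genes, Opn1sw encodes the short-wavelength cone opsin, Gngt1 the gamma subunit of rod transducin and Pde6b the beta subunit of rod phosphodiesterase. Pdc (phosducin) binds the beta and gamma subunits of transducin. Sag encodes rod arrestin, which ends the signal of the activated opsin, and Rcvrn encodes recoverin, a calcium sensor that acts on opsin kinase. Guca1a encodes an activator of guanylate cyclase, which restores cyclic GMP. Prph2 and Rom1 encode the tetraspanins of the rim of the outer segment discs. In the mouse, cones and the first rods are born before birth, while most rods are born around and after it, and outer segments are built only later.

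The libraries used here came from newborn pups (postnatal day 0) of 2 genotypes, with 1 library each, and the embryonic ages of the study were not analysed. The control library was Myrf fl/fl, in which both copies of Myrf carry sites for the recombinase cre, and the mutant library was Rx>cre Myrf fl/fl, in which the Rx promoter drives cre in the early eye field, the source of both the neural retina and the retinal pigment epithelium (RPE). For each library 3 eye cups were pooled, so no spread between animals was available, no test was possible, and every difference below lies between 2 libraries. The 95% intervals are exact and cover counting error only.

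The control matrix held 14305 barcodes and the mutant matrix 12222, with 79017429 and 76272867 UMIs. After filters and doublet removal 12485 control cells (median 4272 UMIs) and 10813 mutant cells (median 4821 UMIs) remained, and 59 barcode sequences occurred in both libraries. Myrf stood at 231 CPM (UMIs per 1000000 UMIs of the class, from 214 to 248) in control RPE-like cells and 26.9 (from 20.7 to 34.4) in mutant RPE-like cells, in the direction of the labels. Rod-like cells held 0 Myrf UMIs in both libraries, cone-like cells 0 (control) and 1 (mutant), and precursor-like cells 5 in each. The photoreceptor comparisons are thus between cells with little or no Myrf in either library. Free RNA differed between the libraries. In rod-like cells, where they serve here as a measure of free RNA, collagen transcripts stood at 2466 CPM (control) and 470 CPM (mutant). Haemoglobin transcripts differed in both directions by class, with 340 CPM (control) and 2634 CPM (mutant) in later rod-like cells and 848.5 and 276 in cone-like cells.

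Cell classes were named from marker genes that did not include the 9 genes or the wider pathway lists, and none of these took part in the clustering. Early precursor-like cells (316 control, 312 mutant) held Otx2 and Neurod4 with Dll4. Late precursor-like cells (467 and 479) held Otx2 and Neurod4 with little Nr2e3. Newborn rod-like cells (287 and 241) had Nrl and Nr2e3, the factors that set rod identity, beside Neurod4, and later rod-like cells (261 and 326) had more Nr2e3 and less Neurod4. Cone-like cells (150 and 234) held Thrb, Rxrg and Sall3. These steps are parts of a continuum cut by clustering. A further 3 sub-clusters with rod markers stayed unnamed, because they also held markers of dividing, RPE or mesenchyme cells, and entered no comparison. They had 62, 49 and 21 control and 49, 9 and 29 mutant cells, and Sag and Gngt1 were among the leading genes of the second, which held 49 control and 9 mutant cells. Later rod-like cells made up 17.6% of the control photoreceptor lineage (from 15.7% to 19.7%) and 20.5% of the mutant lineage (from 18.5% to 22.5%), and cone-like cells 10.1% (control, from 8.64% to 11.8%) and 14.7% (mutant, from 13.0% to 16.5%).

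Rom1, 1 of the 2 disc rim genes, had the highest level of the 9 in early and late precursor-like cells of both libraries. It stood at 8.56 CPM in control neurogenic-like cells and 11.3 in mutant ones, close to the 16.4 and 8.51 CPM of endothelial-like cells, which stand in here for free RNA. It was at 120 CPM in control early precursor-like cells (from 102 to 141) and 132 in mutant ones (from 114 to 153). In late precursor-like cells it was at 354 and 502 CPM, in newborn rod-like cells at 1427 and 1377, and in later rod-like cells at 2427 and 2278. In cells without a rod or cone marker set Rom1 thus already stood above the level of endothelial-like cells in both libraries, and the intervals did not overlap. Prph2, its partner, had lower levels than Rom1 at each of these steps. In neurogenic-like cells it rested on 3 control UMIs (0.658 CPM) and 6 mutant UMIs (1.11 CPM), and in endothelial-like cells it stood at 3.29 and 0 CPM (up to 1.595). It had 7.85 (from 3.76 to 14.4) and 2.85 CPM (from 0.778 to 7.31) in early precursor-like cells, 28.9 (from 21.3 to 38.3) and 28.5 CPM (from 21.5 to 37.1) in late precursor-like cells, 169 and 103 CPM in newborn rod-like cells and 465 and 361 CPM in later rod-like cells.

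Pdc reached the highest level of the 9 genes. Its level in late precursor-like cells was 71.7 CPM in the control and 181 in the mutant, against 18.5 and 4.79 CPM in endothelial-like cells. In newborn rod-like cells it was at 1614 and 1550 CPM and in later rod-like cells at 6070 and 6064 CPM. After each cell was thinned to 1000 UMIs, 96.8% of control later rod-like cells (from 93.7% to 98.6%) and 98.1% of mutant ones (from 96.0% to 99.3%) held a Pdc UMI, against 97.7% and 99.1% without thinning. The thinned shares in endothelial-like cells were 3.71% and 0.629%, at median depths of 4600 and 8998 UMIs before thinning, against 2543 and 3021 in later rod-like cells. Of the 39 Pdc UMIs in control early precursor-like cells, 30 came from 1 cell, and without it the level was 7.099 CPM, against 7.24 CPM in control neurogenic-like cells.

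**Figure D1:**
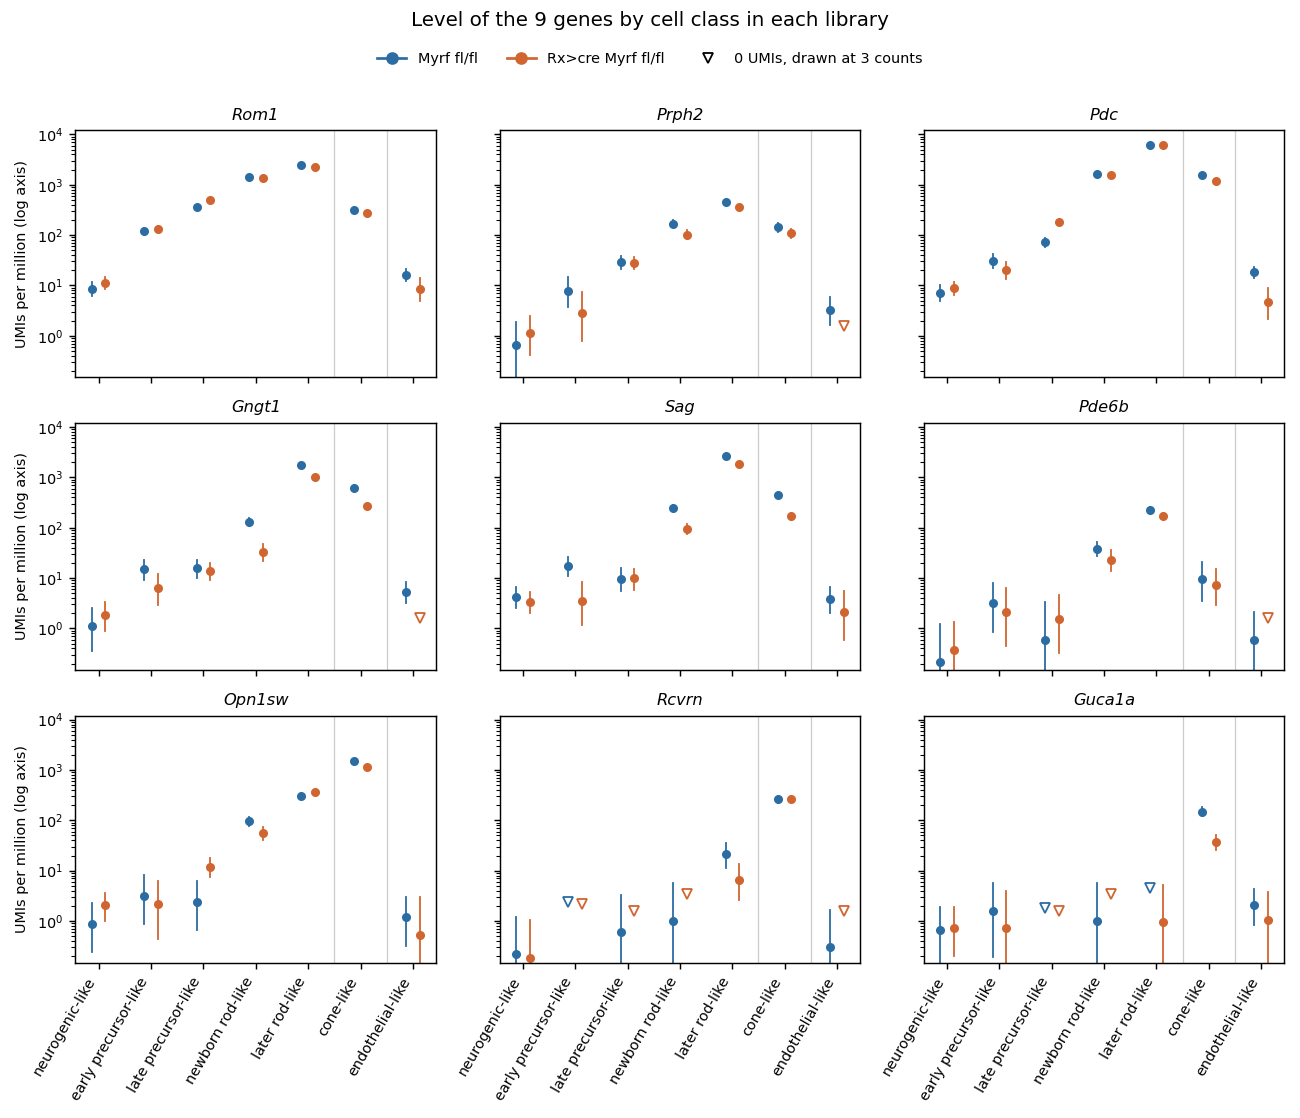
Level of each gene in CPM (log axis) by cell class, with exact Poisson 95% intervals, in the Myrf fl/fl (blue) and Rx>cre Myrf fl/fl (orange) libraries, where open triangles mark 0 UMIs drawn at 3 counts and intervals that go below the axis are clipped. Rom1 lies above the level of neurogenic-like cells in early precursor-like cells of both libraries, Sag and Pde6b are far higher in rod-like than in precursor-like cells, and Rcvrn and Guca1a are highest in cone-like cells.

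Sag, Gngt1 and Pde6b, the rod arrestin, transducin and phosphodiesterase genes, had their highest levels in later rod-like cells. Sag stood at 9.64 CPM in control late precursor-like cells (from 5.51 to 15.7) and 9.85 in mutant ones (from 5.93 to 15.4). Endothelial-like cells stood at 3.88 and 2.13 CPM. Mesenchyme or pericyte-like cells stood at 8.46 (from 7.18 to 9.89) and 2.64 CPM (from 1.78 to 3.77), so control late precursor-like cells were not apart from them. Sag reached 250 and 93.3 CPM in newborn rod-like cells and 2614 and 1839 CPM in later rod-like cells. From newborn to later rod-like cells Sag differed by 10.5-fold in the control and 19.7-fold in the mutant, while Rom1 differed by 1.70-fold and 1.66-fold. Gngt1 stood at 15.7 and 13.99 CPM in late precursor-like cells, 131 and 32.3 in newborn rod-like cells, and 1777 and 1000 in later rod-like cells. Pde6b had 1 control UMI and 3 mutant UMIs in late precursor-like cells. Its level was 38.6 and 23.0 CPM in newborn rod-like cells and 223 and 174 CPM in later rod-like cells. In control early precursor-like cells 15 of 22 Sag UMIs and 13 of 19 Gngt1 UMIs lay in single cells, and all 4 Pde6b UMIs lay in 1 cell.

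Among the steps of the photoreceptor lineage, the other 3 genes were highest in cone-like cells. Opn1sw had 1531 CPM in control cone-like cells (from 1436 to 1631) and 1122 in mutant ones (from 1056 to 1191), and 51.0% and 39.7% of thinned cells held it, against 72.7% and 60.7% of unthinned ones. It was not limited to them. Later rod-like cells had 303 and 370 CPM, and 13.3% (from 9.34% to 18.2%) and 16.2% (from 12.3% to 20.6%) of them held a UMI after thinning, against 0.265% and 0% of endothelial-like cells. Later rod-like cells with at least 2 UMIs of Nrl and Nr2e3 had 307 and 366 CPM of Opn1sw. Rcvrn had 262 CPM in control cone-like cells (from 224 to 305) and 271 in mutant ones (from 239 to 306), but 21.1 and 6.60 CPM in later rod-like cells, where it rested on 14 and 7 UMIs. No early precursor-like cell of either library held a Rcvrn UMI, which allows up to 2.36 and 2.14 CPM. Guca1a had 149 CPM in control cone-like cells (from 120 to 182) and 37.5 CPM in mutant ones (from 26.3 to 52.0). The rod-like cells of each library held 1 Guca1a UMI.

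Rods and cones differed by more than 1.5-fold, in the same direction in both libraries, for 8 of the 9 genes. Higher in rod-like cells past 1.5-fold in both libraries were 5 of the 9 genes (Sag, Pdc, Pde6b, Prph2 and Rom1), where 6.2% of 8740 measured genes were. Lower in rod-like cells were 3 of the 9 (Opn1sw, Rcvrn and Guca1a), where 5.94% of measured genes were. Pde6b showed the widest gap of the rod genes, with a log2 ratio of rod-like over cone-like cells of 3.44 in the control (from 2.42 to 5.04) and 3.69 in the mutant (from 2.79 to 5.19), on 6 and 7 UMIs in cone-like cells. For Rom1 the log2 ratios were 2.50 and 2.78, for Sag 1.41 and 2.62, for Pdc 1.13 and 1.76, while Prph2 was 2.03-fold and 2.26-fold higher in rod-like cells. Gngt1 came closest between both cell types, at 0.34 in the control (from 0.17 to 0.50) and 1.07 in the mutant (from 0.88 to 1.28). The ratios of Rcvrn were -4.70 (from -5.72 to -4.09) and -5.88 (from -7.55 to -5.16), those of Opn1sw -3.09 and -2.29, and those of Guca1a -6.54 (from -13.26 to -5.42) and -4.66 (from -11.52 to -3.61).

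**Figure D2:**
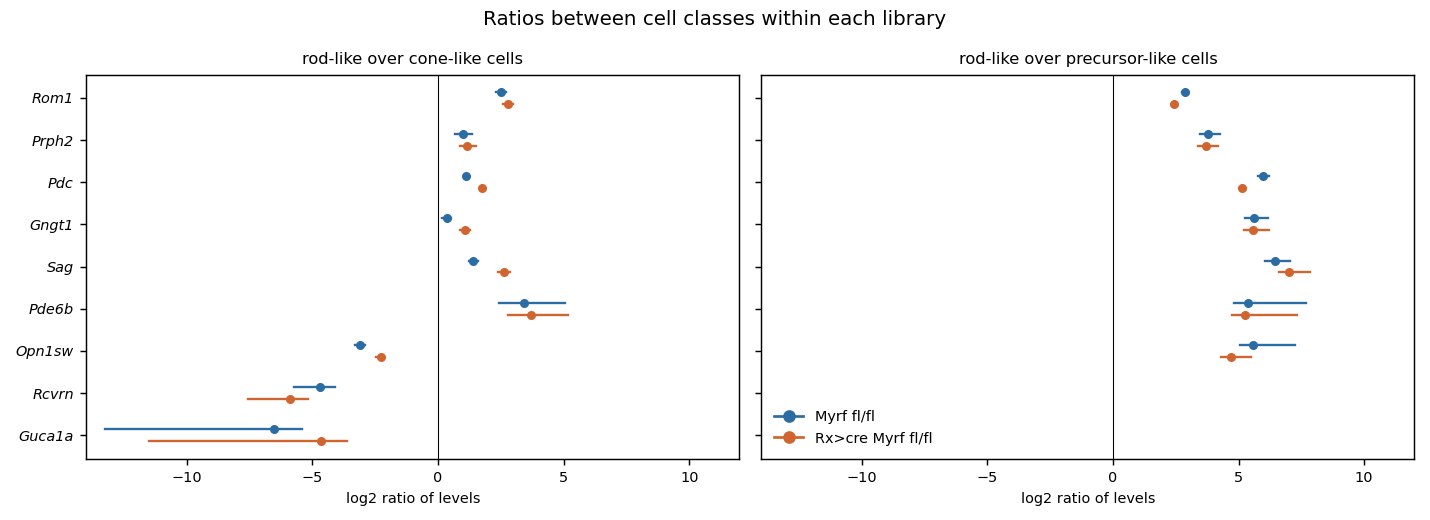
Log2 ratio of the level in rod-like cells over cone-like cells (left) and over precursor-like cells (right) within each library, with exact 95% intervals, for genes with at least 20 UMIs in both classes together. Both libraries place Rom1, Prph2, Pdc, Gngt1, Sag and Pde6b to the right of 0 and Opn1sw, Rcvrn and Guca1a to the left in the comparison with cone-like cells.

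Cone-like cells were not free of the genes called rod genes. Sag stood at 452 CPM in control cone-like cells (from 401 to 507) and 170 in mutant ones (from 145 to 198), above its level in newborn rod-like cells of the same library. Gngt1 stood at 629 and 268 CPM there and Pdc at 1558 and 1187 CPM. Thinned shares of cone-like cells with Sag were 26.9% (from 19.9% to 34.7%) and 6.41% (from 3.63% to 10.4%), against 0.796% and 0% in endothelial-like cells. Unthinned, they were 46.0% and 22.2%. Among control cone-like cells with at least 2 UMIs of Thrb and Rxrg, Sag had 452 CPM (from 396 to 513), and among the others 452 CPM as well (from 336 to 596). In the mutant these levels were 184 (from 155 to 216.5) and 105 CPM (from 62.2 to 166). Rom1 had 322 and 272 CPM in cone-like cells. Against all precursor-like cells of the same library its log2 ratio was 0.35 (from 0.12 to 0.58) in the control library and -0.35 (from -0.55 to -0.15) in the mutant.

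Over the whole precursor step, 7 of the 9 genes could be compared with rod-like cells in both libraries, and all 7 were higher in rod-like cells past 1.5-fold (Sag, Pdc, Gngt1, Pde6b, Prph2, Rom1 and Opn1sw), where 11.7% of 10113 measured genes were. None was lower, where 8.95% of measured genes were. Guca1a and Rcvrn had under 20 UMIs in at least 1 library. Rom1 had the smallest ratios, at 7.25-fold and 5.41-fold, and Sag the largest, at 92.8-fold and 146-fold. Pdc stood between them at 63.3-fold and 35.6-fold, and Gngt1 at 51.8-fold and 52.2-fold.

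The number of the genes held by single cells differed between the steps. Of control cells thinned to 1000 UMIs, 89.7% of early precursor-like cells held none of the 9 genes, 68.2% of late precursor-like cells, 12.6% of newborn rod-like cells, 0.403% of later rod-like cells and 14.1% of cone-like cells. In the mutant these shares were 87.7%, 58.4%, 16.6%, 0.311% and 19.7%. The median later rod-like cell held 4 of the 9 genes in the control and 3 in the mutant. At least 3 of them were held by 84.3% of control and 71.7% of mutant later rod-like cells, by 18.9% and 11.6% of newborn rod-like cells and by 42.3% and 25.2% of cone-like cells. Retinal progenitor-like cells held none in 97.4% and 98.1% of cases.

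**Figure D3:**
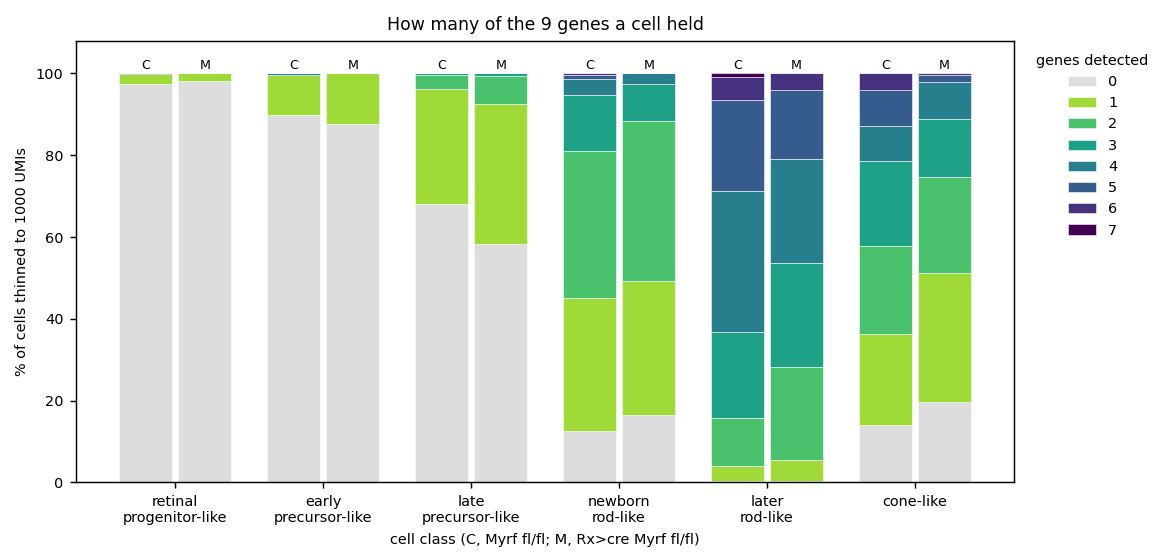
Share of cells, each thinned to 1000 UMIs, that held 0 to 7 of the 9 genes, by cell class for the control (C) and mutant (M) library. Cells without any of the genes fall from 89.7% (control) in early precursor-like cells to 0.403% in later rod-like cells, and mutant later rod-like and cone-like cells hold fewer of the genes than control ones.

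Promoters were examined because 7 of the 9 genes were higher in rod-like than in precursor-like cells. RefSeq (GRCm38.p6) gave a promoter, from 250 bases before to 50 after the start, for 8 of the 9 genes, Rcvrn being the exception. Each was searched on both strands for TAATCC (reverse complement GGATTA), a core bound by the photoreceptor factors CRX and OTX2, and for TGCTGA (reverse complement TCAGCA), part of the site of the rod factor NRL. These motifs do not overlap each other in the matches found. TAATCC in either strand was present in 3 of the 8 promoters (Sag, Gngt1 and Guca1a) and in 7.06% of 32851 mouse promoters of the same length. TGCTGA in either strand was present in 3 of the 8 (Sag, Pde6b and Opn1sw) and in 19.5% of all promoters. The 5 promoters with a match are shown 5′ to 3′ on the strand of the gene, with the matches in capitals. Sag (chr1:87803430-87803729, plus strand) held both motifs, Gngt1 (chr6:3993758-3994057, plus), Guca1a (chr17:47400557-47400856, minus), Pde6b (chr5:108388123-108388422, plus) and Opn1sw (chr6:29380464-29380763, minus) 1 each.
Sag: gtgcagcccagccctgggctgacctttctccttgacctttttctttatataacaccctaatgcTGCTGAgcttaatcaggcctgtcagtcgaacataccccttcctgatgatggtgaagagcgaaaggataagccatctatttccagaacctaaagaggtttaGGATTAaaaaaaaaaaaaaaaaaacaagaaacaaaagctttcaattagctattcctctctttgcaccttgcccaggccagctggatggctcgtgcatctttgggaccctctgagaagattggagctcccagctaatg
Gngt1: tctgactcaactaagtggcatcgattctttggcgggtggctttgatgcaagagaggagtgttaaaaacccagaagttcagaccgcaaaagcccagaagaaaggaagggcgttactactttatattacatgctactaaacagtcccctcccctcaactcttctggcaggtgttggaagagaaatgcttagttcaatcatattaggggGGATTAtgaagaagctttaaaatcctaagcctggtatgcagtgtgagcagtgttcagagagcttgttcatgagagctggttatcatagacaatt
Guca1a: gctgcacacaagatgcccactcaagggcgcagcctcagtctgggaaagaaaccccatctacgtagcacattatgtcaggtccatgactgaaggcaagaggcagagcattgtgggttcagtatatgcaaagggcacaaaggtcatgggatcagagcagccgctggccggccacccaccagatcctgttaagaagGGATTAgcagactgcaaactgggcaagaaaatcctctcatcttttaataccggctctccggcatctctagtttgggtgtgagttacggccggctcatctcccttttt
Pde6b: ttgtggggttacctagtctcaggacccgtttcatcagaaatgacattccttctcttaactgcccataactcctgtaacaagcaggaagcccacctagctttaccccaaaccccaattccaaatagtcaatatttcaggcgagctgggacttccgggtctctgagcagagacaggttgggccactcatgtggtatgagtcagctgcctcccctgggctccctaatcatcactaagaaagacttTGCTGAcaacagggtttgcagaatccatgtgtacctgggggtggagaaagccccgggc
Opn1sw: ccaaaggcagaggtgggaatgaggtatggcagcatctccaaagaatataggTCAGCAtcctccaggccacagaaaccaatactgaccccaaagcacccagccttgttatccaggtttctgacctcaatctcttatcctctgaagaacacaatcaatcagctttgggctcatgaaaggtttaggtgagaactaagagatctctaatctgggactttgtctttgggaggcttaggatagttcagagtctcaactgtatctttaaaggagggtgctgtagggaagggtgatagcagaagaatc
The GGATTA of Sag began 87 bases before the start, that of Gngt1 44 bases and that of Guca1a 57 bases before it. The TGCTGA of Sag began 187 and that of Pde6b 8 bases before the start, and the TCAGCA of Opn1sw 199 bases before it. Pdc, Prph2 and Rom1 had neither word in this window. A match is a description of the sequence and not a site of binding.

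The genotypes were compared within each step, first in rods. In newborn rod-like cells 5 of the 7 measured genes were lower in the mutant past 1.5-fold (Sag, Gngt1, Pde6b, Prph2 and Opn1sw) and none was higher, where 6.41% of 8259 measured genes were lower and 7.98% higher. Measured means at least 20 UMIs over both libraries. Gngt1 rested on 129 control UMIs (131 CPM, from 109 to 156) and 28 mutant UMIs (32.3 CPM, from 21.4 to 46.6), and its log2 ratio was -1.99 (from -2.67 to -1.42). Sag stood at 250 and 93.3 CPM, and its log2 ratio was -1.41 (from -1.80 to -1.05). Of thinned newborn rod-like cells, 11.2% of control (from 7.78% to 15.4%) and 6.64% of mutant ones (from 3.84% to 10.6%) held Sag. For Gngt1 these shares were 6.3% (from 3.8% to 9.8%) and 2.1% (from 0.7% to 4.8%). For both genes the intervals of the shares overlapped between the libraries. The Gngt1 UMIs lay in 37 control and 14 mutant cells, and 1 mutant cell held 9 of the 28. Prph2 had a log2 ratio of -0.71 (from -1.11 to -0.34), and the interval of Pde6b included 0 (from -1.60 to 0.07). Opn1sw had a log2 ratio of -0.78 (from -1.32 to -0.27) that fell away, to 0.05 and 0.09, with a mitochondrial limit of 5% or with doublets kept. With at most 2000 UMIs per cell, which left 22 control and 7 mutant cells, Sag was at 0.64, Gngt1 at 0.05, Pde6b at 1.60 and Opn1sw at 6.40. Rom1 and Pdc, the highest genes in late precursor-like cells, differed by -0.05 (from -0.16 to 0.06) and -0.06 (from -0.16 to 0.05).

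In later rod-like cells 2 of the 8 measured genes were lower in the mutant past 1.5-fold (Gngt1 and Rcvrn), where 6.68% of 8192 measured genes were lower, and none was higher, where 9.73% were. Gngt1 stood at 1777 CPM in control cells (from 1677 to 1881) and at 1000 CPM in mutant cells (from 940 to 1062), and its log2 ratio was -0.83 (from -0.95 to -0.71). Rcvrn rested on 14 and 7 UMIs. Sag, at 2614 and 1839 CPM, had a log2 ratio of -0.51 (from -0.60 to -0.41), Prph2 -0.36 (from -0.58 to -0.14) and Pde6b -0.36 (from -0.68 to -0.04). With at most 2000 UMIs per cell (62 and 24 cells) Prph2 was at 0.13 and Pde6b at 0.34. After thinning, 56.5% of control later rod-like cells (from 50.03% to 62.7%) and 41.0% of mutant ones (from 35.6% to 46.6%) held Gngt1, against 71.3% and 56.4% without thinning, and Sag was held by 70.6% (from 64.5% to 76.2%) and 54.7% (from 49.0% to 60.2%), against 80.1% and 73.3%. Endothelial-like cells held Gngt1 in 1.86% and 0% of thinned cells. Pdc and Rom1 again lay close to equal, at 0.00 (from -0.06 to 0.06) and -0.09 (from -0.18 to 0.00).

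Of the 8 listed rod markers 6 had UMIs in newborn and later rod-like cells of both libraries. Their summed level was 2080 and 1990 CPM in newborn rod-like cells, a log2 ratio of -0.06 (from -0.16 to 0.03), and 4382 and 4364 CPM in later rod-like cells, a log2 ratio of -0.01 (from -0.07 to 0.06). Nr2e3 stood at 1974 and 2066 CPM in later rod-like cells. Samd11 was lower there, at 930 and 747 CPM (log2 ratio -0.32, from -0.47 to -0.16), and Nrl had a log2 ratio of -0.15 (from -0.31 to 0.00) in newborn rod-like cells and 0.01 (from -0.12 to 0.15) in later ones. The 7 listed cone markers summed to 770 and 1003 CPM there, a log2 ratio of 0.38 (from 0.23 to 0.54). The part of these markers in the lower Gngt1 and Sag levels was not tested.

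With both rod steps as 1 class the differences of Sag and Gngt1 were smaller, and later rod-like cells made up 326 of 567 mutant against 261 of 548 control cells of that class. Past 1.5-fold, 1 of the 8 measured genes was lower (Rcvrn, on 15 and 7 UMIs), where 5.07% of 9778 measured genes were, and none was higher, where 7.1% were. Gngt1 had 794 and 564 CPM, a log2 ratio of -0.49 (from -0.61 to -0.38), and Sag 1202 and 1053 CPM, a log2 ratio of -0.19 (from -0.28 to -0.10). Pdc stood at 3410 and 4033 CPM, a log2 ratio of 0.24 (from 0.19 to 0.29), and Opn1sw at 179 and 228 CPM, a log2 ratio of 0.35 (from 0.14 to 0.57).

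In cone-like cells 3 of the 8 measured genes were lower in the mutant past 1.5-fold (Sag, Gngt1 and Guca1a), where 7.5% of 8001 measured genes were, and none was higher, where 9.21% were. Guca1a rested on 94 control and 36 mutant UMIs, and its log2 ratio was -1.96 (from -2.58 to -1.42), and 9.40% (from 5.23% to 15.3%) and 3.85% (from 1.77% to 7.18%) of thinned cells held it. Unthinned, the shares were 26% and 9.83%, and thinned endothelial-like cells held it in 0% and 0.629%. Sag had a log2 ratio of -1.41 (from -1.70 to -1.13) and Gngt1 of -1.23 (from -1.46 to -1.0). Opn1sw and Pdc differed by less, at -0.45 (from -0.58 to -0.32) and -0.39 (from -0.52 to -0.27). Rcvrn was at 0.05 (from -0.24 to 0.34), an interval that included 0, as did those of Prph2 (from -0.81 to 0.03) and Rom1 (from -0.51 to 0.03). The summed cone markers stood at 2452 and 2654 CPM in these cells, a log2 ratio of 0.11 (from 0.02 to 0.21), and the summed rod markers at 635 and 552 CPM, a log2 ratio of -0.20 (from -0.39 to -0.01). Sag and Gngt1 were thus lower in the mutant library in both rod steps and in cone-like cells.

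**Figure D4:**
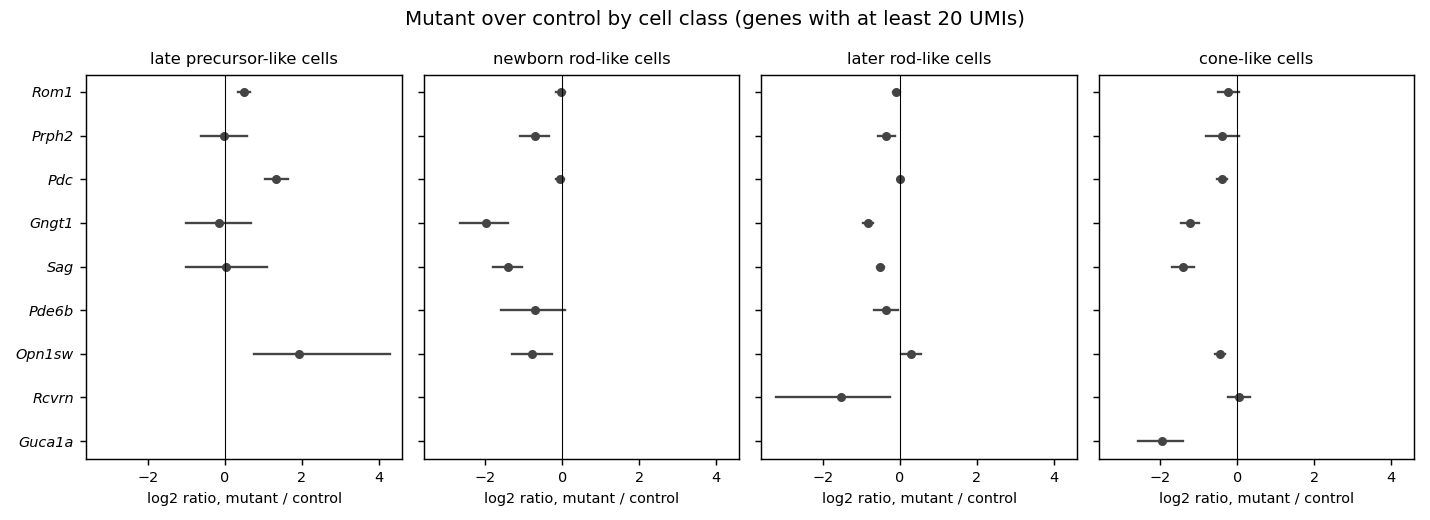
Log2 ratio of mutant over control with exact 95% intervals in late precursor-like, newborn rod-like, later rod-like and cone-like cells, for genes with at least 20 UMIs over both libraries in the class. Sag and Gngt1 lie to the left of 0 in both rod steps and in cone-like cells, Rom1 and Pdc lie near 0 in both rod steps and to the right of it in late precursor-like cells.

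In precursors the genes differed in both directions. Of 6 measured genes 2 were higher in mutant precursor-like cells past 1.5-fold (Pdc and Opn1sw), where 5.69% of 10739 measured genes were, and 1 was lower (Sag, on 38 and 24 UMIs), where 4.58% were. Of the 38 control Sag UMIs, 15 lay in 1 early precursor-like cell. Pdc had 53.9 and 113 CPM, a log2 ratio of 1.06 (from 0.80 to 1.35), and Rom1 253 and 346 CPM, a log2 ratio of 0.45 (from 0.32 to 0.59). Opn1sw rested on 8 and 26 UMIs. In late precursor-like cells Pdc had a log2 ratio of 1.32 (from 1.03 to 1.65), while in early precursor-like cells it was -0.59 (from -1.37 to 0.12). In early precursor-like cells Sag (22 and 5 UMIs) and Gngt1 (19 and 9 UMIs) were lower in the mutant, with log2 ratios of -2.00 (from -4.03 to -0.84) and -1.10 (from -2.54 to 0.00), and single control cells held 15 and 13 of these UMIs. With doublets kept Sag was at 0.91 over all precursor-like cells. Late precursor-like cells were made of 2 sub-clusters. The first held 270 control and 222 mutant cells, with Pdc at 65.8 and 66.3 CPM. The second held 197 control and 257 mutant cells, with Pdc at 81.1 and 292 CPM and Rom1 at 449 and 676 CPM. In the second, Nrl also stood higher in the mutant, at 331 and 417 CPM. Over all late precursor-like cells the listed rod markers summed to 290 CPM (control) and 410 CPM (mutant), a log2 ratio of 0.50 (from 0.33 to 0.66), and the cone markers to 291 and 368 CPM, a log2 ratio of 0.34 (from 0.17 to 0.51). The part of this shift in the higher Pdc and Rom1 levels was not tested.

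Over all kept cells no gene passed 1.5-fold, where 5.08% of 17112 measured genes were higher and 7.9% lower. Pdc, Rom1, Opn1sw and Rcvrn were higher in the mutant, with log2 ratios of 0.37 (from 0.33 to 0.41), 0.27 (from 0.23 to 0.33), 0.31 (from 0.22 to 0.41) and 0.30 (from 0.13 to 0.61). Gngt1 was lower, at -0.36 (from -0.46 to -0.29), as were Guca1a, at -0.46 (from -0.71 to -0.34), and Sag, at -0.13 (from -0.20 to -0.06). Sag changed direction here, to 0.03 with a mitochondrial limit of 5% and to 0.12 with at most 2000 UMIs per cell. Sums over all cells cannot tell fewer cells of a type from less RNA per cell, and the lineage made up a larger part of the mutant library (1592 of 10813 cells, against 1481 of 12485).

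Other genes of the pathway were read from lists that leave out the 9 genes. Of 15 rod pathway genes 8 were measured in rods and cones of both libraries. Higher in rod-like cells past 1.5-fold were 4 of them, where 6.2% of all measured genes were, among them Gnb1 (the beta subunit of rod transducin), Cnga1 and Cngb1 (the rod channel). Lower were 3, where 5.94% of all measured genes were: Pde6g, Rgs9 and Gnb5, the last 2 being parts of the complex that shuts transducin off in both cell types. In later rod-like cells alone none of these was lower past 1.5-fold. Their levels there were 0.915 and 0.877 times those of cone-like cells for Pde6g, 0.699 and 0.856 for Rgs9 and 1.00 and 0.802 for Gnb5. Of 7 measured cone pathway genes 6 were higher in cone-like cells past 1.5-fold (Gnat2, Gnb3, Pde6c, Pde6h, Cnga3 and Cngb3), where 5.94% of all measured genes were. Gngt2, the gamma subunit of cone transducin, stood at 6807 and 7700 CPM in rod-like cells and 8670 and 8564 in cone-like cells. Among 16 outer segment and support genes, 10 of 13 measured ones were higher in rod-like than in precursor-like cells past 1.5-fold, where 11.7% of all measured genes were, among them Rp1 (329 and 303 CPM against 5.79 and 5.10) and Tulp1 (768 and 842 CPM against 29.7 and 39.0). Abca4, the retinoid transporter of the disc rim, went the other way, with 112 and 148 CPM in rod-like and 259 and 253 CPM in precursor-like cells.

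Between the genotypes, in rod-like cells 2 of 6 measured cone pathway genes were higher in the mutant past 1.5-fold, where 7.1% of all measured genes were. They were Gnat2, with a log2 ratio of 0.85 (from 0.32 to 1.47), and Pde6c, with 0.92 (from 0.10 to 1.93). Below that fold were Gnb3 at 0.41 (from 0.32 to 0.51), Cngb3 at 0.32 (from 0.06 to 0.58) and Gngt2 at 0.18 (from 0.14 to 0.21). The interval of the remaining measured gene included 0. No share of all genes with an interval above 0 is given here, so these intervals have no background to be read against. In the same cells the summed cone markers were higher in the mutant, with log2 ratios of 0.18 (from 0.03 to 0.33) in newborn and 0.38 in later rod-like cells, where Thrb was at 0.93 (from 0.26 to 1.70), and their part in the cone pathway values was not tested. Of the 9 measured rod pathway genes none was higher past 1.5-fold and 1 was lower (Rgs9bp, on 17 and 10 UMIs), where 5.07% of all measured genes were lower. Gnb5 had 115 and 162 CPM, below that fold but with an interval above 0. In later rod-like cells Gnb1 was at -0.24 (from -0.37 to -0.11) and Cngb1 at -0.45 (from -0.76 to -0.15). Pde6g and Rgs9bp also had intervals below 0 there, and those of the other 5 measured rod pathway genes included 0. Among outer segment and support genes Rdh12, Rp1, Unc119, Rpgrip1 and Impg2 had intervals below 0 in these cells and Abca4 above it, while 8 included 0. For these intervals too no share of all genes is given. In cone-like cells 2 of 9 measured cone pathway genes and 1 of 12 measured outer segment and support genes were lower in the mutant past 1.5-fold, where 7.5% of all measured genes were. Pde6h, the cone phosphodiesterase gamma subunit, was at -0.81 (from -0.93 to -0.68), Arr3 rested on 17 and 12 UMIs, and Impg2, a matrix protein around photoreceptors, was at -0.59 (from -0.85 to -0.34). Gnat2 was at 0.06 (from -0.15 to 0.28) and Cngb3 at -0.01 (from -0.27 to 0.25) there.

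Most UMIs of 8 of the genes lay in the photoreceptor lineage, from 66.4% (Sag) to 71.1% (Opn1sw) in the control and from 73.1% (Pde6b) to 84.5% (Rcvrn) in the mutant. Unnamed clusters held most of the rest. Guca1a was the exception. Its UMIs lay in the lineage for 16.1% in the control (97 of 603) and 9.69% in the mutant (38 of 392), and for 61.5% and 68.1% in mesenchyme or pericyte-like cells. Within these, 1 cluster led by Acan and Tnc had 72.4 CPM (from 63.3 to 82.5) in the control and 76.5 CPM (from 65.6 to 88.7) in the mutant, where Gngt1 had 1.91 and 0.437 CPM. The level of Guca1a in that cluster exceeded its level in mutant cone-like cells. No other annotated gene overlaps Guca1a (chr17:47394558-47400584, minus strand, GENCODE M21 on GRCm38).

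**Figure D5:**
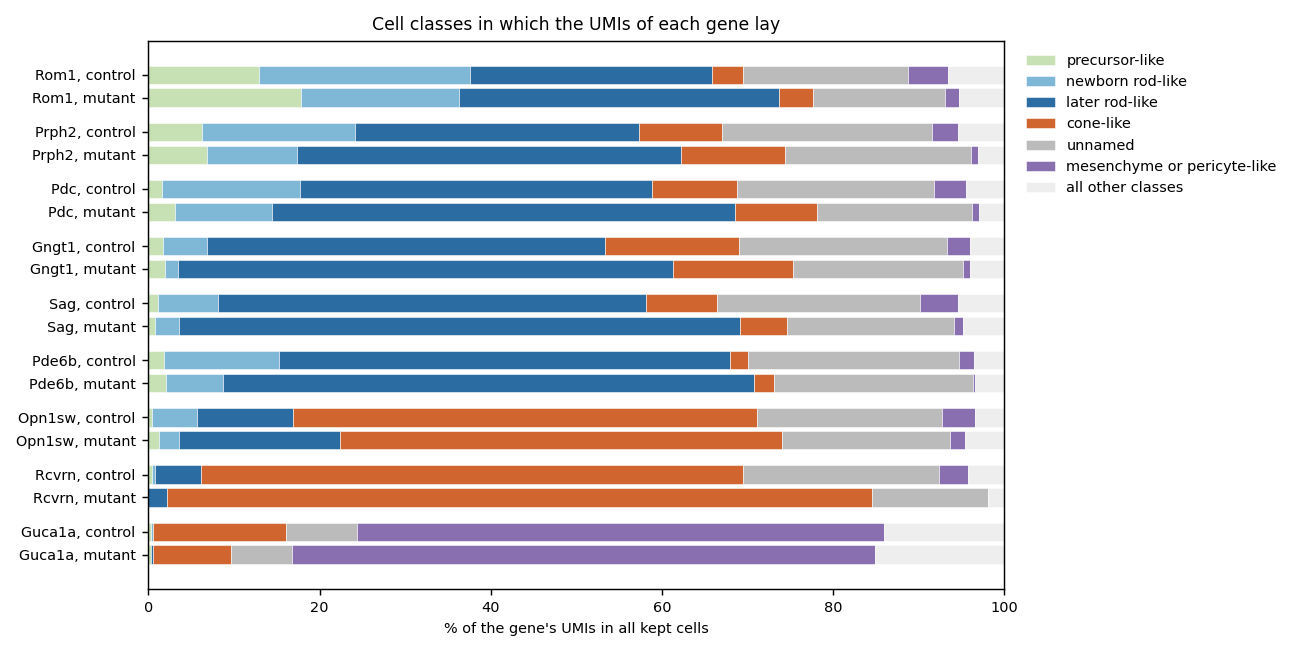
Share of the UMIs of each gene, over all kept cells, that lay in each cell class, for the control and mutant library. Later rod-like cells hold the largest named part for Rom1, Prph2, Pdc, Gngt1, Sag and Pde6b, cone-like cells for Opn1sw and Rcvrn, and mesenchyme or pericyte-like cells for Guca1a.

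Genes outside the lists were ranked by how closely their levels followed the mean of the 9 genes over 30 units (15 classes in each of 2 libraries), which share depth and free RNA within a library. The 8 closest were Rp1l1 (Pearson r = 0.975), AC110166.1 (0.975), Fabp12 (0.969), Ppm1n (0.964), Peli3 (0.963), Nxnl2 (0.961), Ankrd33 (0.952) and Klhl1 (0.945). Nxnl2 had 396 and 410 CPM in rod-like cells, 450 and 353 in cone-like cells and 5.08 and 4.79 in endothelial-like cells. Among the 9 genes themselves Pdc and Prph2 ran most alike (r = 0.981), and Guca1a was most like Rcvrn (r = 0.586).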

How the data were processed

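Eye cups of newborn mice were profiled with 10x Genomics 3′ libraries, 1 per genotype from 3 pooled eye cups. The authors counted UMIs with Cell Ranger 7.1.0 on mm10 and used Seurat 4.1.1, per the submitters' processing notes and methods, while the matrix header names 3.1.0. The deposited values are raw UMI counts per gene and barcode, without normalization. The annotation used for counting is not given in the sources used here.

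Barcodes with at least 200 genes and at most 15% mitochondrial UMIs were kept, the limits of the study. Its limit of 2000 UMIs against doublets was tried only as an alternative, because 80.2% of control and 92.1% of mutant barcodes lay above it. Scrublet (scanpy 1.11.5) removed the highest-scored 11.7% of control and 10.1% of mutant barcodes, at an expected rate of 0.8% per 1000 cells. Its own threshold marked 0% and 5.46%. Cells were clustered with Seurat 5.3.0 in R 4.3.3 (anchor integration, 2000 variable genes less 25 of the lists compared and of sex-linked genes, 30 components, resolution 1), and photoreceptor cells again at 0.8. A class name needed at least 3 listed markers, each in at least 10% of cells and at least 2-fold over other cells.

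UMIs were summed per class and library and divided by the class total (CPM). UMIs are counted at transcript ends, so no length correction was made. For log2 ratios of mutant to control 1 CPM was added to each level. Their intervals come from the exact conditional test of 2 Poisson counts, without that addition. Shares have Clopper-Pearson intervals. For a level of 0 the upper limit is that of 3 counts. UMIs that shared droplets or free RNA are not independent, so the intervals cover counting error only. On simulated rod-like counts the interval covered the true ratio for 96.1% of 9578 unchanged genes, and 8.31% of those genes lay past 1.5-fold. These counts were drawn from the Poisson model that the interval assumes. The simulation therefore checks the calculation only and says nothing about spread between cells or animals. The 9 genes, the marker and pathway lists and the named genes (all 9, pathway genes with at least 50 UMIs in rod-like or cone-like cells, and the 8 closest in pattern) were chosen with earlier results of these data known. The thresholds of naming were set with the clusters in view. Alternatives were thinning, another pseudocount, doublets kept, stricter limits on UMIs and mitochondrial share, another class total, a marker gate and finer sub-clusters. Some genes of the lists are not reported here.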

Additional observations from a re-analysis of the deposited data

Results flagged for a closer look

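Pdc was higher in mutant rod-like cells (log2 ratio 0.24) and lower in mutant cone-like cells (log2 ratio -0.39), a difference of -0.63 between cell types that was not tested. Opn1sw differed in the same way, at 0.35 in rod-like and -0.45 in cone-like cells, a difference of -0.80 that was not tested either. In later rod-like cells alone Pdc was at 0.00 and Opn1sw at 0.29, while in newborn rod-like cells they were at -0.06 and -0.78. A cluster of 105 control and 105 mutant cells with markers of amacrine cells, rods and cones stayed unnamed and out of the comparisons by class, and it held 11.6% of all UMIs of the 9 genes in kept cells (3073 of 25418 in the control and 3033 of 27113 in the mutant).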

How the results depend on the processing

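No paired analysis was possible because each genotype has 1 library and the labels carry no shared replicate numbers. No library was left out, since each genotype has 1. Of the values recomputed for single genes, 253 moved by less than their counting interval, 91 moved further and 14 changed direction. A change of sign counted as a change of direction only where the reported interval left out 0. Of the summary values, 63 held, 8 moved and 1 changed direction by that rule, and the cause was not tested. For a median the interval was that of its middle gene, or the mean over both middle genes, and it included 0 in precursor-like (from -0.19 to 0.49) and newborn rod-like cells (from -1.60 to 0.07), so their changes of sign below count as moved.

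Most of these came with at most 2000 UMIs per cell, which left 5 control and 10 mutant cone-like cells, 34 and 26 precursor-like, 22 and 7 newborn rod-like and 62 and 24 later rod-like cells. The median log2 ratio of the measured genes was then -1.14 in cone-like cells (-0.42 as reported), -2.73 in precursor-like cells (0.15), 0.62 in newborn rod-like cells (-0.72) and 0.13 in later rod-like cells (-0.36). No gene was then lower in rod-like than in cone-like cells past 1.5-fold (0 against 3) and 4 instead of 7 were higher in rod-like than in precursor-like cells. Single genes that changed direction at this limit were Rom1 in precursor-like cells (-0.88), Sag (0.12) and Rcvrn (-1.18) over all kept cells, Sag (0.64), Gngt1 (0.05) and Opn1sw (6.40) in newborn rod-like cells, and Pde6b (0.34) and Prph2 (0.13) in later rod-like cells. Values whose reported interval included 0 and that changed sign at this limit were Prph2 (6.16), Rom1 (0.57) and Rcvrn (-8.16) in cone-like cells, Pde6b (0.55) in rod-like cells, Pdc (0.62) and Pde6b (1.60) in newborn rod-like cells, and Rom1 (0.13) in later rod-like cells.

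With a marker gate the median was -0.68 in cone-like and -0.61 in precursor-like cells, where Opn1sw changed to -0.79. With doublets kept it was 0.69 in precursor-like cells, Sag changed to 0.91 there and Opn1sw to 0.09 in newborn rod-like cells. With a mitochondrial limit of 5%, Sag changed to 0.03 over all kept cells and Opn1sw to 0.05 in newborn and -0.03 in later rod-like cells. Over all alternatives Gngt1 ranged from -0.94 to -0.77 in later rod-like and from -2.58 to -1.08 in cone-like cells, and Sag from -0.54 to -0.16 and from -2.02 to -1.40. The steps of newborn and later rod-like cells, and their alternatives, were chosen after the data were seen. The share of all genes past 1.5-fold was lower with at least 50 UMIs per gene (3.7% higher and 2.48% lower in rod-like cells). Genes with few UMIs, such as Rcvrn and Guca1a in rod-like cells, are limited by depth.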

Other observations

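The unnamed cluster with amacrine and photoreceptor markers had a median depth of 8482 UMIs (control) and 9364 UMIs (mutant), above those of any photoreceptor step. It held rod genes and cone genes together, with Sag at 441 and 340 CPM, Gngt1 at 360 and 226 CPM, Opn1sw at 185 and 235 CPM and Guca1a at 35.1 and 14.9 CPM. Gngt1 and Guca1a were thus lower in the mutant cells of this cluster too (intervals from 324 to 399 and from 199 to 257 CPM for Gngt1, and from 24.6 to 48.7 and from 8.52 to 24.2 CPM for Guca1a).

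Of thinned retinal progenitor-like cells, 71 of 2775 in the control and 65 of 3467 in the mutant held any of the 9 genes. In endothelial-like cells 25 of 377 and 6 of 159 did.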
